A study of Mus musculus with 13 samples.

Results

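Glutathione S-transferases were followed in the livers of mice with different forms of the retinoblastoma gene Rb1, 24 h after the carcinogen diethylnitrosamine (DEN). The 10 genes were Gstm1, Gstm3, Gstp1, Gstt1, Gstt2, Gstt3, Gsta4, Gstk1, Gstz1 and Mgst1, chosen by name as Gst and Mgst genes with a probe set annotated to that symbol alone. A gene with several such probe sets was represented by the brightest on average, and both probe sets of Gstm3 are shown. They are 10 of 19938 genes measured this way, and all 10 passed the filter on dim genes that left 14953 genes for testing.

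Liver RNA of mice aged 14 days was measured on 13 single-colour Affymetrix arrays. The groups were N750F with DEN (5 arrays, numbered 1 to 5), heterozygous with DEN (2 arrays, 3 and 4), knockout-labelled with DEN (2 arrays, 1 and 2), wild type with DEN (2 arrays, 3 and 4) and untreated wild type (2 arrays, 1 and 2). DEN was injected once into the peritoneum at 20 mg/kg, and the study's design text says that untreated mice received saline. The Cre transgene used the promoter of albumin, a gene of hepatocytes, and exon 19 of Rb1 lay between loxP sites. Wild type means floxed Rb1 without Cre, in both wild type groups. Knockout-labelled livers had floxed Rb1 with Cre, which aims the deletion at cells where the albumin promoter is active. Other cells of the liver may have kept Rb1, and the cells with the deletion are not recorded. Heterozygous livers had a functional allele and a floxed allele with Cre, and another field of the labels tags them LOH. For N750F the labels name the mutation and not the second allele. Separate litters are not recorded for the samples of a group, and p-values measure the spread between these samples, part of which may be technical. Untreated livers of the mutant genotypes were not analysed here, so a mutant group set against untreated wild type differs in genotype and treatment together.

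Glutathione S-transferases join the tripeptide glutathione to electrophiles, which makes reactive chemicals and products of lipid peroxidation soluble and fit for export. The cytosolic enzymes fall into classes named by Greek letters, of which mu (Gstm), pi (Gstp), theta (Gstt), alpha (Gsta) and zeta (Gstz) are measured here, beside the mitochondrial and peroxisomal kappa enzyme Gstk1 and the membrane-bound Mgst1. In liver many of them are induced by the transcription factor NRF2, encoded by Nfe2l2, which is released from KEAP1 under electrophilic stress and binds antioxidant response elements. The pi enzyme is known as a marker of preneoplastic liver foci in the rat.

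RefSeq's table of promoters (GRCm38.p6) held windows for 8 of the 10 genes, 12 windows in all, and Gstt2 and Gsta4 were not in it. The 250 bases before the start are shown for the 4 genes that differed among the groups and for Mgst1, since NRF2 is a known regulator of the family. Where a gene had several starts, the window farthest upstream is given. Each is written 5′ to 3′ on the gene's own strand, with matches to the 2 motifs below in capitals. The windows are Gstp1 at chr19:4037913-4038162, minus strand, Gstm1 at chr3:108017974-108018223, minus strand, Gstm3 at chr3:107969175-107969424, minus strand, Gstt3 at chr10:75781423-75781672, minus strand, and Mgst1 at chr6:138140277-138140526, plus strand.
Gstp1: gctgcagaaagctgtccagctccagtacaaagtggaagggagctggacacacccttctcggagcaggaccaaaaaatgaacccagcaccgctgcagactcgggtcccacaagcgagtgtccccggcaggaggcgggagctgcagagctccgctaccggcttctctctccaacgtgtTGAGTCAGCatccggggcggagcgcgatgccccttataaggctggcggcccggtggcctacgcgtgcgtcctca
Gstm1: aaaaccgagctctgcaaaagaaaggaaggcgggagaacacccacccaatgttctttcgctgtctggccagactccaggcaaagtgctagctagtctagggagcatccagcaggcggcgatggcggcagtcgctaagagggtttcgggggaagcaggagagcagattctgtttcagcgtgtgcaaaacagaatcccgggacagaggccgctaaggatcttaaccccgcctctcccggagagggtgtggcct
Gstm3: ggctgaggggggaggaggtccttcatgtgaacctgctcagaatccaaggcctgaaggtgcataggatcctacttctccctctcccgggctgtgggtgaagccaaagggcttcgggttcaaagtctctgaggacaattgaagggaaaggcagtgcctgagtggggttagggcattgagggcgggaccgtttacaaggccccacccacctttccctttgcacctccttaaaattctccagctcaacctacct
Gstt3: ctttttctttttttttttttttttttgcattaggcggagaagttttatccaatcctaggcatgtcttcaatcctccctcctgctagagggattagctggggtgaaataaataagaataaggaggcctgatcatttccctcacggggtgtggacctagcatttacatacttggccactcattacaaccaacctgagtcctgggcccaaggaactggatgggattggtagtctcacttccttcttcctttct
Mgst1: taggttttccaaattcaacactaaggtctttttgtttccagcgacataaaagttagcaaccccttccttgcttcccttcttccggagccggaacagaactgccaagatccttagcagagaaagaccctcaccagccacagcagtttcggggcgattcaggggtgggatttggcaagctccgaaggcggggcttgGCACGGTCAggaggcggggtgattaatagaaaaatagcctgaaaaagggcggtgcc

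The antioxidant response element core was searched as TGACNNNGC on both strands, and 10.2% of 32851 mouse promoter windows of this length held it. Among the windows of the 8 genes it was found in 1 of Mgst1, as GCACGGTCA on the opposite strand, 56 bases before the start. The NF-E2 core, searched as TGANTCAGC on both strands, was added after the sequences had been seen, and it overlaps the first motif where its N is C. It was present in 1.02% of windows and, among the windows of the 8 genes, in that of Gstp1, as TGAGTCAGC 74 bases before the start. In the other windows these letters were not found, which says nothing of sites outside them. Gstm1 and Gstm3 are both on chromosome 3, at 108012250 to 108017973 and 107963696 to 107969174. The theta genes lie side by side on chromosome 10, with Gstt3 at 75774117 to 75781422, Gstt1 at 75783813 to 75798584 and Gstt2 at 75831842 to 75837419. Paralogues of a class are similar in sequence, and signal from a close copy could not be told apart from that of the named gene.

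Array medians of the deposited intensities were 76.87 to 82.99 in the 9 arrays of run 1 and 48.2 to 73.3 in the 4 arrays of run 2. Run 2 held N750F 4 and 5, heterozygous 4 and wild type DEN 4, and the run was a term of the model. The mean level of hepatocyte markers, on the same log2 scale as below, lay between 12.21 and 12.64 in all arrays, and that of cholangiocyte markers between 5.75 and 6.24. Knockout-labelled array 2 stood apart in skeletal muscle genes, being the highest array for 8 of 11 of them. The Rb1 level ranged over the arrays between 6.57 and 8.43, and since the position of its probes relative to exon 19 was not known it does not check the genotype labels. By Y-linked genes both heterozygous and both knockout-labelled arrays were male and both wild type DEN arrays female, while N750F held 1 male and 4 female arrays and untreated wild type 1 of each. Heterozygous array 4 stood apart with an Xist level of 8.05, against 5.64 to 6.16 in the other male arrays. A covariate for the Y-linked level had an adjusted p of 0.998 (limma) for each of the 10 genes. It rested almost wholly on N750F and untreated wild type, the groups with both sexes, so it had little power to show an effect of sex. In heterozygous or knockout-labelled against wild type livers given DEN, sex and genotype cannot be told apart.

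Levels below are log2 of the quantile-normalized intensity plus 16, 1 value per array, and differences are log2 differences from a single limma model with their standard error (SE). A gene was called where its p-value, adjusted by Benjamini-Hochberg over all 14953 genes, was under 0.05. Over the 5 groups together, 4 of the 10 transferases differed by the limma F test, against 2.89% of all genes tested. These were Gstm1 (adjusted p = 0.00528), Gstp1 (adjusted p = 0.00914), Gstt3 (adjusted p = 0.0101) and Gstm3 (adjusted p = 0.029). All 4 were highest in heterozygous livers and next in wild type livers given DEN. Knockout-labelled livers followed. By plain group means, N750F stood above untreated wild type for Gstm1 and Gstp1 and below it for Gstm3 and Gstt3. For Gstm3 the direction was not settled. With the run in the model N750F was 0.10 ± 0.21 above untreated wild type. The second Gstm3 probe set had a mean of 8.31 in N750F and 7.57 in untreated wild type livers. In the orders of group means, no pair of neighbouring groups passed the test. The other 6 genes had adjusted p between 0.194 and 0.321.

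**Figure D1:**
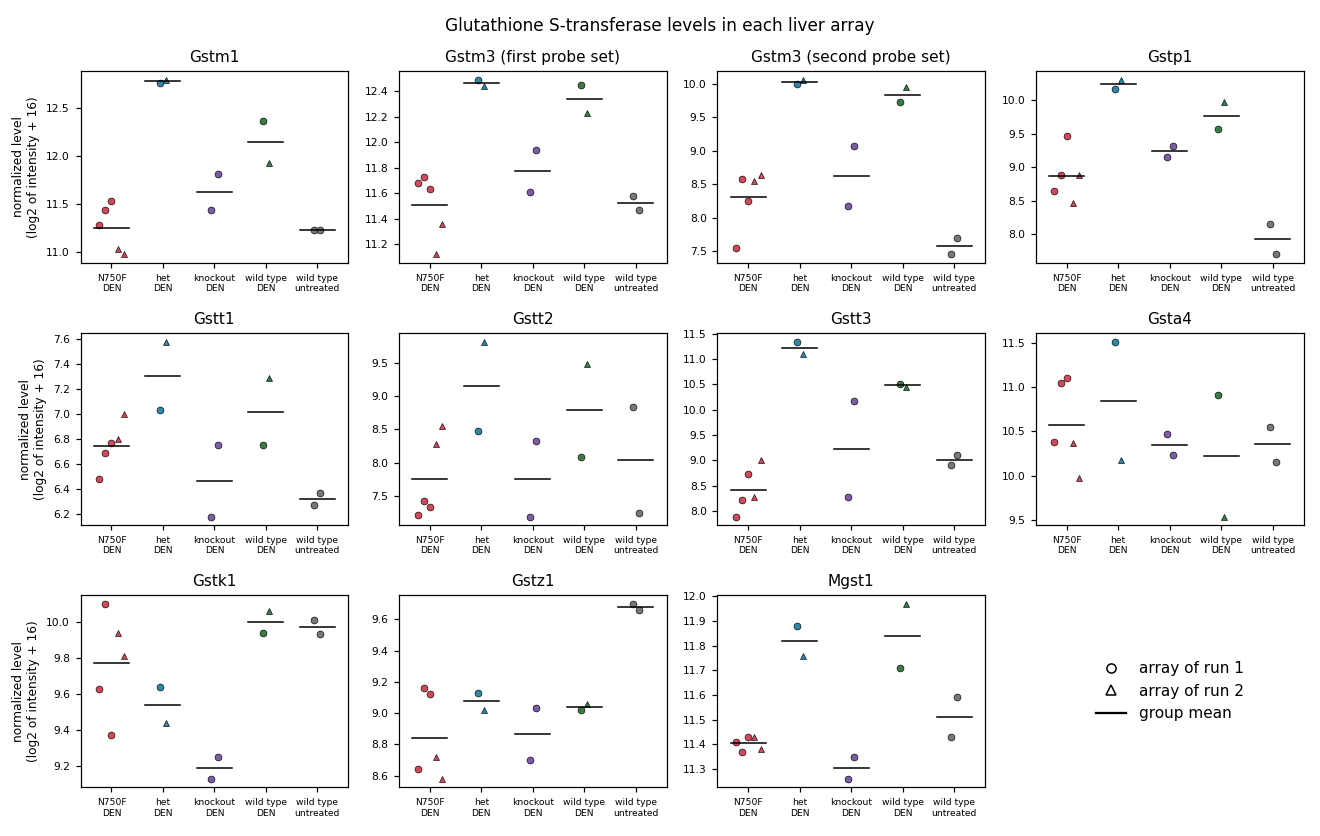
Level of each transferase in each of the 13 arrays, as log2 of the normalized intensity plus 16, with 1 point per array, circles for run 1, triangles for run 2 and a line at the group mean. Gstm1, both Gstm3 probe sets and Gstp1 have the 2 heterozygous arrays and the 2 wild type DEN arrays above every N750F array, and Gstt3 does so by the widest gap.

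Gstm1, a mu class enzyme abundant in mouse liver, had levels of 11.28, 11.43, 11.53, 11.03 and 10.97 in N750F livers. It reached 12.76 and 12.80 in heterozygous livers and 11.43 and 11.81 in knockout-labelled livers. Wild type livers given DEN had 12.37 and 11.93, and untreated wild type livers had 11.23 and 11.22. The heterozygous arrays were above all others, both wild type DEN arrays were above every N750F array, and the N750F arrays overlapped the knockout-labelled and the untreated arrays. On the deposited linear scale Gstm1 was 7352 and 6692 in heterozygous livers, against 2179 and 2370 in untreated wild type livers.

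Gstm3, another mu class enzyme, had levels by its first probe set of 11.68, 11.73, 11.63, 11.12 and 11.36 in N750F livers. They were 12.49 and 12.44 in heterozygous, 11.61 and 11.94 in knockout-labelled, 12.45 and 12.23 in wild type DEN, and 11.58 and 11.47 in untreated wild type livers. Heterozygous and wild type DEN arrays were above all others and overlapped each other. The second probe set had 7.54, 8.57, 8.24, 8.54 and 8.64 in N750F livers. It had 10.00 and 10.06 in heterozygous, 8.17 and 9.07 in knockout-labelled, 9.72 and 9.95 in wild type DEN, and 7.45 and 7.69 in untreated wild type livers. It placed the same 4 arrays at the top, with adjusted p = 0.00814 over the 5 groups by limma when used in place of the first. Differences were wider by the second probe set.

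Gstp1, the pi class enzyme, had levels of 8.64, 8.88, 9.47, 8.47 and 8.89 in N750F livers. They were 10.17 and 10.31 in heterozygous livers and 9.16 and 9.32 in knockout-labelled livers. They were 9.57 and 9.97 in wild type livers given DEN, against 8.15 and 7.70 in untreated wild type livers. Every array from a mouse given DEN was above both untreated arrays, and the heterozygous arrays were above all others. This probe set carries the symbol Gstp1 alone, and probe sets annotated to Gstp1 together with its near copy Gstp2 were not used.

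Gstt3, of the theta class, varied most, with a range of 3.45 over the arrays. N750F livers had 7.89, 8.21, 8.73, 8.28 and 9.0. Heterozygous livers had 11.34 and 11.10, knockout-labelled livers 8.27 and 10.16, wild type DEN livers 10.51 and 10.45, and untreated wild type livers 8.90 and 9.11. The heterozygous and wild type DEN arrays did not overlap with each other or with any other array. The 2 knockout-labelled arrays differed by 1.89, with array 1 among the N750F values and array 2, the one with high muscle genes, just under wild type DEN.

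In wild type livers given DEN, Gstp1 rose above untreated wild type livers by 1.87 ± 0.33 (SE, 3.65-fold, adjusted p = 0.0249, limma). It was the 1 transferase of 10 called, against 0.689% of all genes. Gstm1 was 1.08 ± 0.25 higher (adjusted p = 0.0692), Gstm3 0.96 ± 0.25 (adjusted p = 0.0977) and Gstt3 1.41 ± 0.51 (adjusted p = 0.232), and these did not pass. Both DEN arrays were above both untreated arrays for each, as also for Gstt1 (0.51 ± 0.26) and Mgst1 (0.31 ± 0.23). With 2 arrays in each group such an order is easily reached. The share of all genes whose arrays separate was not counted, here or in the other comparisons. Gstm1 passed without knockout-labelled array 1 (1.08, adjusted p = 0.047) or array 2 (1.07, adjusted p = 0.0479). The second probe set of Gstm3 did pass, with 2.10 ± 0.36 (adjusted p = 0.0244). Gstz1, which isomerizes maleylacetoacetate in tyrosine breakdown, had the lowest difference, -0.54 ± 0.27 (adjusted p = 0.39), with both DEN arrays below both untreated arrays. The median difference of the 10 genes was 0.43, against -0.021 over all genes tested. The call of Gstp1 was lost without wild type DEN array 4 (1.64, adjusted p = 0.142), untreated array 1 (2.11, adjusted p = 0.129) or untreated array 2 (1.65, adjusted p = 0.0977). Within the arrays of run 1, with a single wild type DEN array, it was at 1.61 (adjusted p = 0.186), and with the Y-linked covariate at 1.86 (adjusted p = 0.0594). Whole liver was measured, so fewer cells of a type and less RNA per cell cannot be told apart.

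In heterozygous livers given DEN, 3 of the 10 transferases rose above untreated wild type, against 1.4% of all genes. Gstp1 rose by 2.34 ± 0.33 (SE, 5.07-fold, adjusted p = 0.0046, limma), Gstm1 by 1.72 ± 0.25 (3.29-fold, adjusted p = 0.0058) and Gstm3 by 1.09 ± 0.25 (2.12-fold, adjusted p = 0.0466). By its second probe set Gstm3 rose by 2.30 ± 0.36 (adjusted p = 0.008). Gstt3 was 2.15 ± 0.51 higher without passing (adjusted p = 0.0538), and passed without either knockout-labelled array, whose Gstt3 levels differed widely (adjusted p = 0.00737 without array 1 and 0.00745 without array 2). The median over the 10 was 0.88, against -0.036 over all genes. Gstp1 passed without any 1 of the 13 arrays. Gstm1 was lost without heterozygous array 4 (1.54, adjusted p = 0.0547) or untreated array 1 (1.70, adjusted p = 0.0741), and Gstm3 was lost in 10 of the 13 fits that left out an array. Within the arrays of run 1, with a single heterozygous array, none of the 3 passed, with Gstp1 at 2.21 (adjusted p = 0.0722), Gstm1 at 1.56 (adjusted p = 0.0942) and Gstm3 at 1.02 (adjusted p = 0.22). With the Y-linked covariate Gstm3 was lost (1.03, adjusted p = 0.126). Between heterozygous and wild type livers given DEN 0 of the 10 passed by limma, and 0.00669% of all genes were called. Gstm1 was nearest at 0.63 ± 0.24 (95% interval 0.12 to 1.15, adjusted p = 0.717). At an unadjusted p under 0.05 there were 1 of the 10 and 1029 of all 14953 genes.

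In N750F livers given DEN, 0 of the 10 transferases passed against untreated wild type by limma, while 6.21% of all genes did. At an unadjusted p under 0.05 there were 3 of the 10, beside 3314 of all 14953 genes. The 3 were Gstp1 (0.97 ± 0.28, adjusted p = 0.0536), Gsta4 (0.61 ± 0.27, adjusted p = 0.211) and Gstz1 (-0.76 ± 0.22, adjusted p = 0.0582). Gsta4 followed the array run, and untreated wild type had no array of run 2. Its plain means were 10.57 in N750F and 10.36 in untreated wild type livers, with overlapping arrays. Every N750F array was above both untreated arrays for Gstp1 and below both for Gstz1. Gstm1 differed by 0.15 ± 0.21, with a 95% interval of -0.30 to 0.60, and Gstt3 by -0.63 ± 0.42, with an interval of -1.54 to 0.27. In knockout-labelled livers 0 of the 10 passed against untreated wild type, against 0.0869% of all genes. At an unadjusted p under 0.05 there were 1417 of all 14953 genes and 3 of the 10. These were Gstp1 (1.31 ± 0.31, adjusted p = 0.166), Gstk1 (-0.79 ± 0.26, adjusted p = 0.334) and Gstz1 (-0.82 ± 0.25, adjusted p = 0.285). Gstt3 in knockout-labelled livers was at 0.21 ± 0.48 against untreated wild type, at -0.74 without knockout-labelled array 2 (adjusted p = 0.457) and at 1.16 without array 1 (adjusted p = 0.384). In N750F livers Gstp1 passed without N750F array 4 (1.01, adjusted p = 0.0395), and Gstz1 passed without knockout-labelled array 1 (adjusted p = 0.0462) or array 2 (adjusted p = 0.0459), at -0.76 in both fits. These comparisons with untreated wild type share its 2 arrays, so the direction of a gene in each is not independent of the others.

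**Figure D2:**
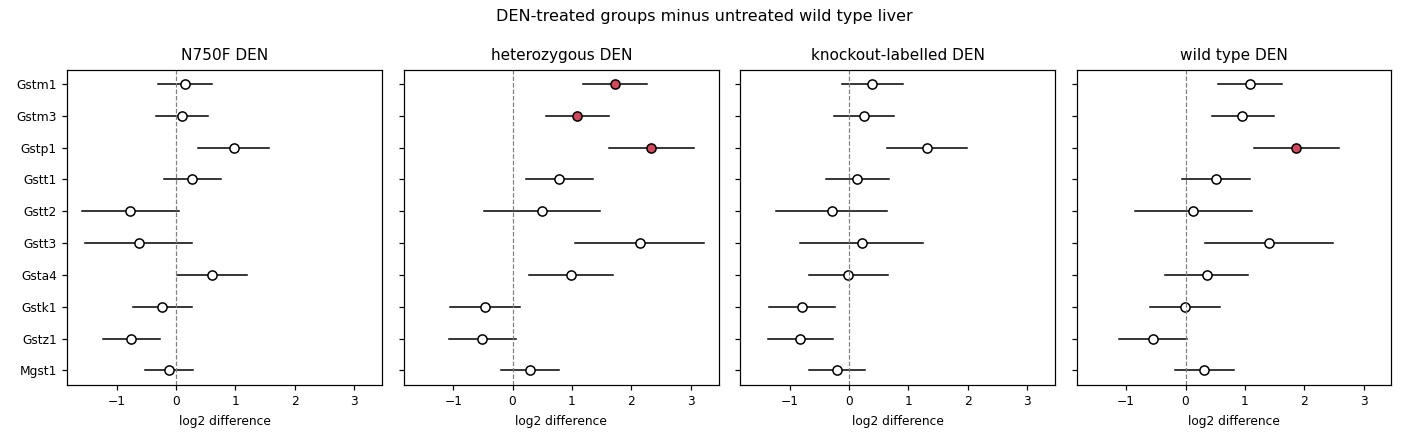
Log2 difference of each transferase between each group given DEN and untreated wild type, with 95% intervals from the limma model, filled points marking an adjusted p under 0.05. Filled points are Gstm1, Gstm3 and Gstp1 in heterozygous livers and Gstp1 in wild type livers, and the intervals of Gstm1 and Gstm3 in N750F livers include 0.

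After DEN, N750F livers had less Gstm1, Gstm3 and Gstt3 than wild type livers, 3 of the 10 transferases against 1.42% of all genes. Gstt3 was lower by the widest margin, -2.04 ± 0.40 (SE, 0.243-fold, adjusted p = 0.0244, limma), followed by Gstm1 at -0.93 ± 0.20 (0.524-fold, adjusted p = 0.0365) and Gstm3 at -0.87 ± 0.20 (0.548-fold, adjusted p = 0.0449). By its second probe set Gstm3 differed by -1.49 ± 0.29 (adjusted p = 0.0225). All 5 N750F arrays were below both wild type DEN arrays for these genes. They were also below them for Gstp1 (-0.90 ± 0.26, adjusted p = 0.124) and Mgst1 (-0.43 ± 0.18, adjusted p = 0.3), which did not pass. The median of the 10 was -0.65, against -0.014 over all genes.

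The calls of N750F against wild type livers rested on few arrays. Gstt3 was lost without N750F array 2 (-2.00, adjusted p = 0.0544), N750F array 4 (-1.96, adjusted p = 0.0564), wild type DEN array 3 (-1.92, adjusted p = 0.0973) or wild type DEN array 4 (-2.15, adjusted p = 0.327). Gstm1 was lost in 9 and Gstm3 in 11 of the 13 fits without an array, with differences that stayed between -1.02 and -0.85 for Gstm1 and between -0.92 and -0.81 for Gstm3. Within the arrays of run 1, with a single wild type DEN array, Gstt3 was at -2.21 (adjusted p = 0.487), Gstm1 at -1.01 (adjusted p = 0.48) and Gstm3 at -0.83 (adjusted p = 0.575). With the Y-linked covariate Gstt3 passed (-1.95, adjusted p = 0.0402), and Gstm1 (-0.92, adjusted p = 0.0599) and Gstm3 (-0.88, adjusted p = 0.0634) did not.

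Against heterozygous livers, N750F livers had lower levels of 4 of the 10 transferases, against 1.64% of all genes. Gstt3 differed by -2.78 ± 0.40 (SE, 0.145-fold, adjusted p = 0.00274, limma) and Gstm1 by -1.57 ± 0.20 (0.338-fold, adjusted p = 0.00145). Gstp1 differed by -1.38 ± 0.26 (0.385-fold, adjusted p = 0.0159) and Gstm3 by -0.99 ± 0.20 (0.503-fold, adjusted p = 0.0195), or -1.69 ± 0.29 by its second probe set (adjusted p = 0.00826). Gstt2 was 1.26 log2 units lower without passing (-1.26 ± 0.36, adjusted p = 0.14), and passed at -1.27 without untreated array 1 (adjusted p = 0.041) or untreated array 2 (adjusted p = 0.0416). For the 4 called genes all N750F arrays lay below both heterozygous arrays, and the median of the 10 was -0.75, against -0.01 over all genes. Without heterozygous array 4, the male array with the higher Xist level, all 4 were lost, with Gstm1 at -1.34 (adjusted p = 0.088), Gstm3 at -0.84 (adjusted p = 0.432), Gstp1 at -1.26 (adjusted p = 0.341) and Gstt3 at -3.01 (adjusted p = 0.068). Without heterozygous array 3 Gstm1 passed and Gstm3 (-1.16, adjusted p = 0.0699), Gstp1 (-1.51, adjusted p = 0.0849) and Gstt3 (-2.52, adjusted p = 0.0631) did not.

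Within the arrays of run 1, with a single heterozygous array, N750F livers differed from heterozygous livers by -3.07 for Gstt3 (adjusted p = 0.16), -1.35 for Gstm1 (adjusted p = 0.16), -1.17 for Gstp1 (adjusted p = 0.411) and -0.86 for Gstm3 (adjusted p = 0.411), in limma. With the Y-linked covariate Gstm1 (-1.64, adjusted p = 0.0309) and Gstt3 (-3.24, adjusted p = 0.0252) passed, and Gstp1 (-1.40, adjusted p = 0.181) and Gstm3 (-0.92, adjusted p = 0.259) did not.

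Knockout-labelled livers had less Gstm1 than heterozygous livers, -1.32 ± 0.25 (SE, 0.4-fold, adjusted p = 0.047, limma), the 1 transferase of 10 called, against 0.301% of all genes. The call was lost in 12 of 13 fits without an array and held without knockout-labelled array 2, the one with high muscle genes (-1.50, adjusted p = 0.0278). Within the arrays of run 1, with a single heterozygous array, Gstm1 was at -1.14 (adjusted p = 0.385), and with the Y-linked covariate at -1.33 (adjusted p = 0.0623). With all arrays Gstt3 was at -1.93 ± 0.51 (adjusted p = 0.173). Without knockout-labelled array 2 it was at -2.89 (adjusted p = 0.00334), and without array 1 at -0.99 (adjusted p = 0.314). Against wild type livers given DEN, 0 of the 10 passed in knockout-labelled livers by limma, 5 had an unadjusted p under 0.05, and 0.0468% of all genes were called. Of all 14953 genes, 1278 had such an unadjusted p. Gstk1 was at -0.77 ± 0.27 (adjusted p = 0.445) and Gstt3 at -1.19 ± 0.51 (adjusted p = 0.537). Gstt3 was at -2.15 without knockout-labelled array 2 (adjusted p = 0.0381) and at -0.25 without array 1 (adjusted p = 0.87). Between N750F and knockout-labelled livers 0 of the 10 and 0% of all genes passed. At an unadjusted p under 0.05 there were 1823 of all 14953 genes and 2 of the 10. Gstk1 was 0.55 ± 0.23 higher in N750F livers (adjusted p = 0.365) and Gsta4 0.62 ± 0.27 higher (adjusted p = 0.395). Gsta4 followed the array run, and knockout-labelled livers had no array of run 2. Its plain means were 10.57 in N750F and 10.35 in knockout-labelled livers, with overlapping arrays. Gstt3 was at -0.85 ± 0.42 there, with a 95% interval of -1.75 to 0.06. It was at -1.79 without knockout-labelled array 1 (adjusted p = 0.0223) and at 0.10 without array 2 (adjusted p = 1).

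**Figure D3:**
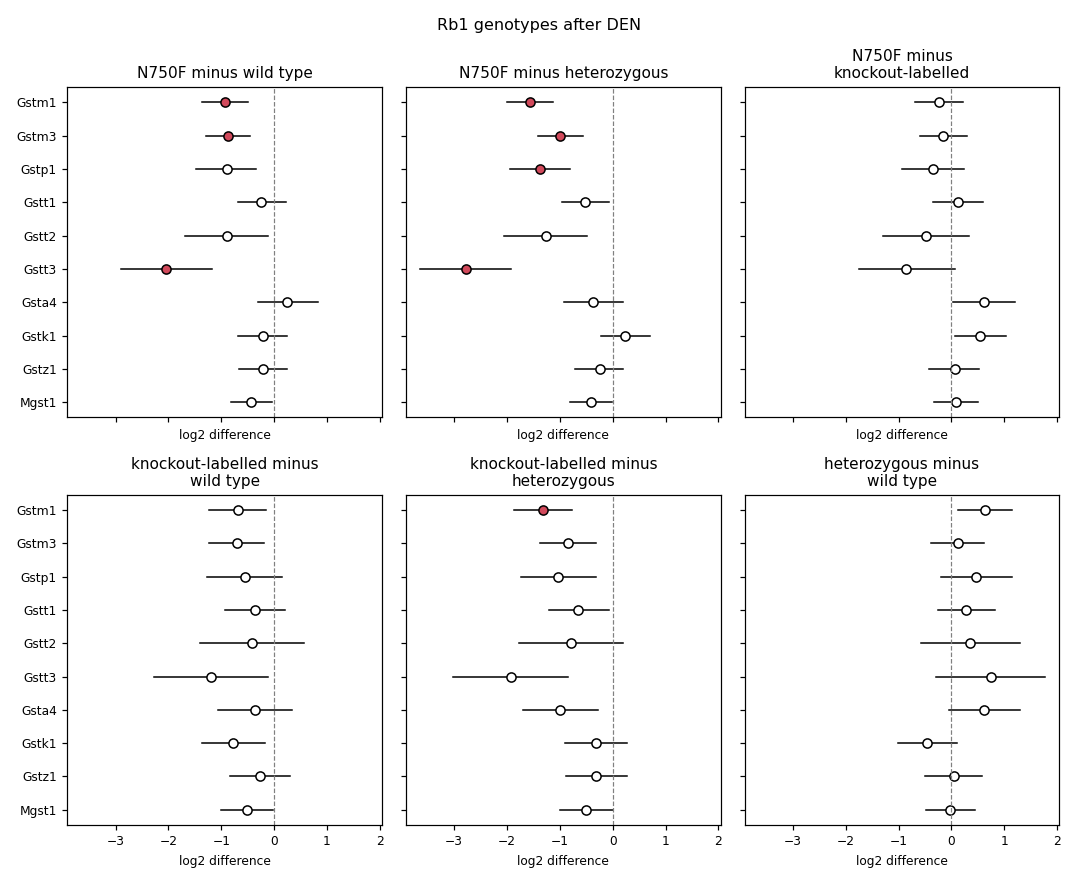
Log2 difference of each transferase between pairs of Rb1 genotypes after DEN, with 95% intervals from the limma model, filled points marking an adjusted p under 0.05. N750F is lower for 3 genes against wild type and 4 against heterozygous livers, Gstm1 is lower in knockout-labelled than in heterozygous livers, and the other 3 pairings have no filled point.

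The remaining 6 transferases showed no difference among the groups past the threshold. Gstt1, a theta class enzyme that acts on small halogenated compounds, spanned 6.18 to 7.58. Gstt2 spanned 7.19 to 9.82 and Gsta4, which conjugates the lipid aldehyde 4-hydroxynonenal, 9.54 to 11.51. Both followed the array run, by 1.22 ± 0.29 for Gstt2 (adjusted p = 0.0156, run 2 minus run 1) and by -0.98 ± 0.21 for Gsta4 (adjusted p = 0.00952). Gstk1 spanned 9.13 to 10.10, with both knockout-labelled arrays (9.13 and 9.25) below every other. Gstz1 spanned 8.58 to 9.70, and both untreated arrays (9.70 and 9.66) were above every array of mice given DEN. Mgst1, a membrane-bound enzyme with peroxidase activity, spanned 11.26 to 11.97. Its 5 N750F arrays lay within 11.37 to 11.43, below both heterozygous arrays (11.88 and 11.76) and both wild type DEN arrays (11.71 and 11.97).

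Of 22 further genes of the family, 18 had a probe set of a single symbol and 13 were tested. Gstm2 was lower in N750F livers than in heterozygous livers (-2.06 ± 0.41, adjusted p = 0.0219, limma) and than in untreated wild type livers (-1.79 ± 0.43, adjusted p = 0.0307). Its levels were 5.11, 6.94, 6.23, 6.97 and 6.78 in N750F livers, 8.58 and 8.46 in heterozygous livers, and 7.93 and 8.01 in untreated wild type livers, with no overlap. Gstm6 was higher in heterozygous livers than in untreated wild type livers (1.55 ± 0.35, adjusted p = 0.0481) and lower in N750F than in heterozygous livers (-1.35 ± 0.28, adjusted p = 0.026). Hpgds, a prostaglandin D synthase of the sigma class, was higher in N750F than in untreated wild type livers (0.89 ± 0.24, adjusted p = 0.0449). By limma 0 of these 13 passed in N750F against wild type livers given DEN (8 at an unadjusted p under 0.05), and 0 in wild type livers given DEN against untreated livers (4 at an unadjusted p under 0.05). Over all 14953 genes, 2193 and 2052 had such an unadjusted p in these comparisons, and 1.42% and 0.689% were called. Gsta1, Gsta2, Gsta13 and Gstp2 had no probe set of their symbol alone and are not reported here.

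Genes that make, recycle or export glutathione were followed beside the transferases. By limma 0 of 8 tested synthesis genes passed against untreated wild type in any of the 4 groups given DEN, with 0 to 2 at an unadjusted p under 0.05. Of all 14953 genes, 1417 to 3314 had such an unadjusted p in these comparisons. The shares of all genes called were 0.689% in wild type, 1.4% in heterozygous, 6.21% in N750F and 0.0869% in knockout-labelled livers. Oplah, which returns 5-oxoproline to glutamate, was lower in N750F than in wild type livers given DEN (-0.94 ± 0.22, adjusted p = 0.049, limma), where 1.42% of all genes were called. Gclc, the catalytic subunit of the rate-limiting ligase, differed by 0.45 ± 0.25 between wild type livers given DEN and untreated livers (95% interval -0.09 to 0.99). Of 9 reduction and peroxidase genes, Srxn1, which repairs oxidized peroxiredoxins, rose in heterozygous (3.10 ± 0.44, adjusted p = 0.0046) and N750F livers (1.71 ± 0.37, adjusted p = 0.0212) against untreated wild type. Glrx2, a mitochondrial glutaredoxin, was lower in N750F than in untreated livers (-0.95 ± 0.24, adjusted p = 0.0347). Of 12 export and mercapturate genes, Acy3 was lower in N750F than in untreated livers (-0.75 ± 0.21, adjusted p = 0.0464). Of 8 tested genes of enzymes that use glutathione for other reactions, 0 passed in the comparisons with untreated wild type or in N750F against wild type or heterozygous livers, with 0 to 2 at an unadjusted p under 0.05. Over all 14953 genes, 1417 to 3314 had such an unadjusted p in these comparisons. In N750F against wild type and heterozygous livers 1.42% and 1.64% of all genes were called.

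Of 12 tested NRF2 targets outside the family, 4 rose and 1 fell in wild type livers given DEN, 5 rose in heterozygous livers, 2 rose and 1 fell in N750F livers and 1 rose in knockout-labelled livers, each against untreated wild type. The shares of all genes called in the same comparisons were 0.689% in wild type, 1.4% in heterozygous, 6.21% in N750F and 0.0869% in knockout-labelled livers. Ephx1, the microsomal epoxide hydrolase, rose in all 4, by 2.12 ± 0.25 in N750F, 2.65 ± 0.30 in heterozygous, 2.39 ± 0.29 in knockout-labelled and 2.64 ± 0.30 in wild type livers. Nqo1, a quinone reductase, rose by 1.51 ± 0.37 in N750F, 3.26 ± 0.44 in heterozygous and 2.26 ± 0.44 in wild type livers. The gene called lower was Osgin1, a growth inhibitor induced by oxidative stress (-1.33 ± 0.26 in N750F and -1.80 ± 0.31 in wild type livers). N750F livers were lower than heterozygous livers for 3 of the 12, against 1.64% of all genes called in either direction. These were Ugdh (-1.84 ± 0.25, adjusted p = 0.00184), Aox1 (-1.71 ± 0.29, adjusted p = 0.00757) and Nqo1 (-1.76 ± 0.35, adjusted p = 0.0201). Against wild type livers given DEN 0 of the 12 passed in N750F livers by limma, 3 had an unadjusted p under 0.05, and the median of the 12 was -0.24. In that comparison 1.42% of all genes were called, and 2193 of all 14953 genes had such an unadjusted p. Ugdh, which makes UDP-glucuronic acid, had levels of 8.61, 8.20, 9.01, 9.19 and 8.87 in N750F livers, 10.48 and 10.78 in heterozygous livers, and 7.99 and 7.88 in untreated wild type livers. N750F arrays were between the other 2 groups, with no overlap.

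**Figure D4:**
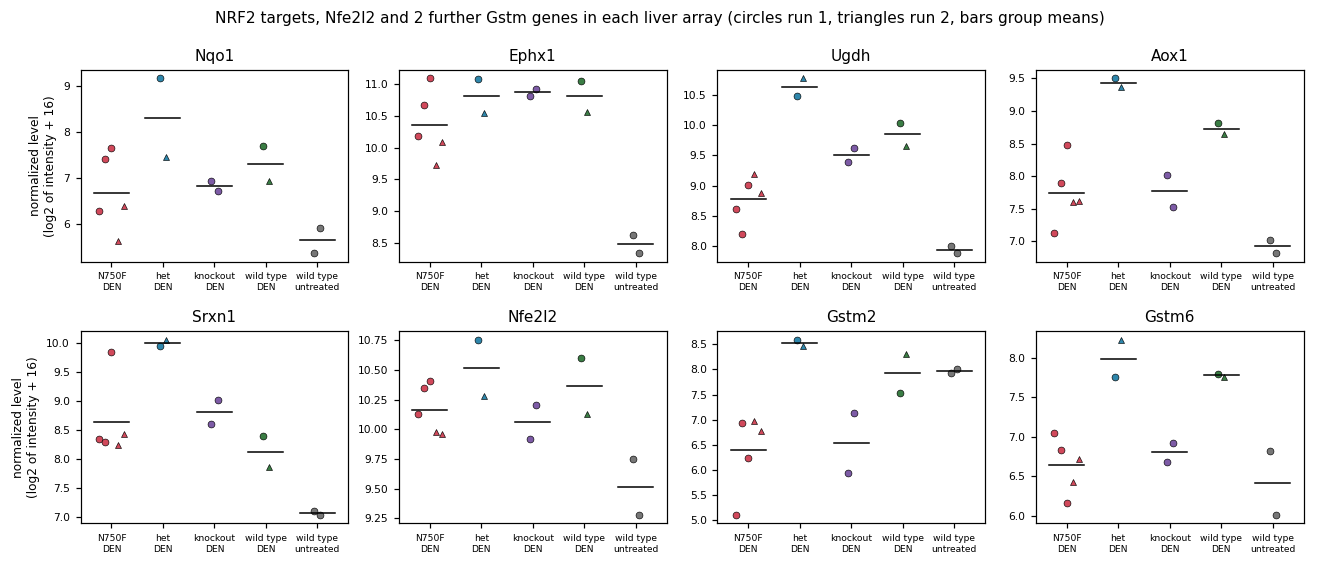
Levels of 5 NRF2 targets, of Nfe2l2 and of Gstm2 and Gstm6 in each of the 13 arrays, as log2 of the normalized intensity plus 16, with bars at group means. For Ephx1 all groups given DEN stand above untreated wild type, and for Ugdh and Aox1 the heterozygous arrays stand above all N750F arrays.

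Among 17 tested regulators, Nfe2l2 itself rose against untreated wild type in heterozygous livers (1.20 ± 0.25, adjusted p = 0.0361, limma) and in N750F livers (0.81 ± 0.21, adjusted p = 0.0395). In wild type livers given DEN it was 1.05 ± 0.25 higher without passing (adjusted p = 0.0818), and N750F and wild type livers given DEN differed by -0.24 ± 0.20 (95% interval -0.67 to 0.20). Nr1i3, the constitutive androstane receptor that induces drug-metabolizing genes, was lower in N750F than in heterozygous livers (-1.51 ± 0.33, adjusted p = 0.0338) and than in untreated livers (-1.42 ± 0.34, adjusted p = 0.0307). Its levels were 7.67, 7.87, 8.17, 7.57 and 8.70 in N750F livers, 9.43 and 9.63 in heterozygous livers, and 9.69 and 8.92 in untreated livers. All N750F arrays were below both other groups, which overlapped each other. Onecut1, a hepatocyte transcription factor, was lower in N750F than in wild type livers given DEN (-2.01 ± 0.29, adjusted p = 0.00688), as was Cebpb (-1.14 ± 0.26, adjusted p = 0.0483). Against untreated wild type, N750F livers also had Arnt called higher and Onecut1 called lower. In that comparison 2 of the 17 regulators were higher and 2 lower, against 6.21% of all genes called.

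The mean level of 10 markers of pericentral hepatocytes, the zone where many drug-metabolizing enzymes are concentrated, was 7.43 to 8.52 in N750F, 8.56 to 8.97 in heterozygous, 7.84 to 8.10 in knockout-labelled, 8.77 to 8.87 in wild type DEN and 8.54 to 8.88 in untreated wild type livers. Of the 9 tested, 1 was lower in N750F than in wild type livers given DEN, with a median of -0.81, and 1 lower than in heterozygous livers, with a median of -0.74, against 1.42% and 1.64% of all genes called in either direction. Others of the list, such as Cyp2e1, Lgr5 and Lect2, had N750F levels that overlapped those of the other groups. The mean of 8 Kupffer cell and macrophage markers was 7.50 to 8.05 in N750F, 7.00 to 7.29 in heterozygous, 7.42 to 7.78 in knockout-labelled and 6.74 to 6.96 in wild type livers, and was 7.67 to 8.09 in untreated wild type livers. Of these 8, 1 was higher in N750F than in wild type livers given DEN (median 1.05), and 2 were lower in wild type livers given DEN than in untreated livers (median -1.03). The shares of all genes called in either direction were 1.42% and 0.689% in these comparisons. The mean of neutrophil markers was 5.62 to 6.34 in N750F, 5.37 to 5.53 in heterozygous, 5.62 to 5.70 in knockout-labelled, 5.25 to 5.34 in wild type DEN and 6.01 to 6.27 in untreated wild type livers. The median difference of the 4 tested was 0.83 between N750F and wild type livers given DEN, and -1.16 between wild type livers given DEN and untreated livers, where 1 was called lower, against 0.689% of all genes called in either direction. The mean of 6 stellate cell markers was 8.32 to 8.72 in N750F livers, against 8.02 to 8.19 in wild type livers given DEN. It was 7.86 to 8.40 in heterozygous, 8.51 to 8.60 in knockout-labelled and 8.46 to 8.72 in untreated wild type livers. Of the 6, 0 were called in N750F against wild type livers given DEN (median 0.31), against 1.42% of all genes. Of the 7 neutrophil markers measured, 4 passed the filter on dim genes, whose cutoff was 5.94, and the neutrophil means lay near that cutoff. Hepatocyte markers differed less, 12.45 to 12.64 in N750F livers, against 12.29 to 12.42 in wild type livers given DEN, and these ranges did not overlap. The part of these shifts in the differences of the transferases was not tested.

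Outside the 10 transferases, the genes whose levels followed each called transferase most closely were found by the root mean square difference of mean-centred log2 levels over the 13 arrays. For Gstm1 they were Creg1 (0.298), Ndufaf4 (0.302) and Baat (0.317), against a standard deviation of Gstm1 itself of 0.621. For Gstp1 they were Aox1 (0.3), Cyp17a1 (0.302) and Entpd5 (0.319), against 0.781 for Gstp1. For Gstt3, which varied most, they were Pigr (0.485), Cyp2c50 (0.605) and Baat (0.64), against 1.179. For Gstm3, by its first probe set, they were Mocos (0.219), Oplah (0.22) and Sec24a (0.226), against 0.447. Among the 10 transferases Gstm1 and the first probe set of Gstm3 were nearest each other, at 0.227. The second Gstm3 probe set, which changed by other amounts, was not used for these values. The arrays share groups and runs, so these values describe likeness over these samples alone.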

How the data were processed

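Per the labels' protocols, RNA of frozen liver was amplified and labelled for 1 array per sample. The authors deposited a linear intensity for each of 35556 probe sets on 13 arrays. Affymetrix Expression Console 1.1 and RMA (no version) appear in the submitters' processing notes, with no role stated. The deposited distributions differed between arrays, so quantile normalization was applied here (limma 3.58.1, R 4.3.3). An offset of 16 was added before taking log2, and changes of dim genes are therefore understated. The annotation listed 23410 probe sets, 21789 with 1 symbol and 1621 with several, which named no gene, and did not list the other 12146. Symbols were updated for 21698 through Entrez IDs, and the probe set with the highest mean stood for each of 19938 genes. The dimmest genes, under the 25th percentile of means, were not tested.

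A single limma model (lmFit, eBayes) held the 5 groups and the array run, read from the names of the raw arrays in the labels, with 7 residual degrees of freedom, so that groups of 2 arrays share the spread of all. P-values of the 10 comparisons were adjusted by Benjamini-Hochberg over 14953 genes, and the model was tested on simulated data. Few arrays per group limit the precision. The members, the gene lists and the tests were chosen with earlier results of these data known. All 10 transferases are named, and from each list up to 4 genes past the threshold in a comparison described, with Gclc and Nfe2l2 outside calls named after their values were seen. Alternatives were median scaling, offsets of 1 and 50, no filter, no run term, run 1 alone, a replicate block, a Y-linked covariate, the mean of probe sets, the other Gstm3 probe set (chosen after seeing the data) and leaving out each array. Of 78 pairs of arrays 0 were identical.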

Additional observations from a re-analysis of the deposited data

How the results depend on the processing

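The 12 called differences of single transferases were recomputed under 23 alternatives, and of 276 such values 173 stayed past the threshold, 103 did not and 0 changed sign. The mean of probe sets and the other Gstm3 probe set could not change the differences of genes other than Gstm3. Those genes have 1 probe set each, so the 173 include values fixed in advance. In most comparisons the count of transferases called depended on single arrays. Leaving out 1 array at a time, the count was 2 to 4 over the 5 groups together, 0 to 2 for wild type DEN against untreated, 1 to 4 for heterozygous and 0 to 1 for N750F against untreated, 0 to 3 for N750F and 0 to 1 for knockout-labelled against wild type DEN, 0 to 5 for N750F and 0 to 2 for knockout-labelled against heterozygous, and 0 to 1 for N750F against knockout-labelled. With the arrays of run 1 alone, fewer samples, no transferase passed (0 for the 5 groups together, for wild type DEN and heterozygous against untreated, for N750F against wild type DEN and heterozygous, and for knockout-labelled against heterozygous). Deviations of same-numbered arrays correlated at -0.13 to 0.13 for numbers 1 and 2 and at 0.27 to 0.45 for numbers 3 and 4, which in heterozygous and wild type DEN livers are also the 2 runs, so the numbers were not taken as pairs. With the replicate block, 1 was called over the 5 groups, 2 for N750F against heterozygous, and 0 for wild type DEN and heterozygous against untreated, N750F against wild type DEN (Gstt3 adjusted p = 0.0509), and knockout-labelled against heterozygous. The Y-linked covariate left 0 for wild type DEN against untreated, 1 for N750F against wild type DEN, 2 for N750F against heterozygous and 0 for knockout-labelled against heterozygous. An offset of 50 gave 3 for wild type DEN and 2 for N750F against untreated. The mean of probe sets and the other Gstm3 probe set, chosen after seeing the data, each gave 2 for wild type DEN against untreated. Median scaling, an offset of 1 and no run term each left 1 for N750F against wild type DEN and 0 for knockout-labelled against heterozygous, where no filter also left 0. Why the counts changed was not tested for any of these alternatives, including those on fewer arrays.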
